A study of Mus musculus with 3 samples.

Results

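Notch1 and Notch3, a pair of Notch receptors, and 6 genes that Notch signalling induces in developing T cells (Dtx1, Hes1, Heyl, Nrarp, Ptcra and Il2ra) were followed across thymocytes of 3 mouse genotypes. These 8 of the 19938 genes named on the array were chosen by name, with earlier results of these data known. Each had 1 probe set, a group of probes for a gene, that carried its symbol alone, and all 8 were measured on every array. RNA came from the thymocyte suspension of mice lacking TCF-1 (TCF-1-/-, aged 8 weeks), of β-catenin transgenic mice (16 weeks) and of wild type (WT) mice (12 weeks). TCF-1 is a DNA-binding factor through which β-catenin relays Wnt signals. Its loss and a gain of β-catenin were each compared with WT. The sources used here do not name the promoter of the transgene or the strain, or say whether RNA of several animals was pooled. Each genotype has 1 array. No value therefore has an error, no difference has a replicate check or a p-value, and precision is limited by having 3 arrays.

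Notch receptors are cut after binding a ligand on a neighbouring cell, and the freed intracellular part joins the DNA-binding protein RBPJ in the nucleus and switches on target genes. In the thymus, Notch1 signalling commits progenitors to the T lineage and is strong up to the DN3 stage of CD4-CD8- cells, where the pre-T cell receptor is assembled. Signalling and its target transcripts are known to decline as cells become CD4+CD8+ double-positive thymocytes, the most numerous cells of the normal thymus.

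The 300 bases around the start of transcription (250 before it and 50 after it) were read for the 6 of 8 genes that the RefSeq promoter table (GRCm38.p6) holds: Notch1, Notch3, Dtx1, Nrarp, Ptcra and Il2ra. The windows of Ptcra, Nrarp and Dtx1 are shown because they cover the range seen among these genes, with both motif kinds, with E-boxes alone and with neither. Capitals mark TGGGAA, the core of the RBPJ motif, and CANNTG, the E-box, forms of which are bound by E proteins. Both strands were searched.
Ptcra, chr17:46763663-46763962, minus strand: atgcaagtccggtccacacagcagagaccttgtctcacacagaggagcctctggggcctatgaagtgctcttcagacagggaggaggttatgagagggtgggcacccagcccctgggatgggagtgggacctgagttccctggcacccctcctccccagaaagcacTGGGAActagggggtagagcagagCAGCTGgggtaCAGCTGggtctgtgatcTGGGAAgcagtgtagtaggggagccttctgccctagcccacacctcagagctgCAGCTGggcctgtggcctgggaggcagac
Nrarp, chr2:25180508-25180807, plus strand: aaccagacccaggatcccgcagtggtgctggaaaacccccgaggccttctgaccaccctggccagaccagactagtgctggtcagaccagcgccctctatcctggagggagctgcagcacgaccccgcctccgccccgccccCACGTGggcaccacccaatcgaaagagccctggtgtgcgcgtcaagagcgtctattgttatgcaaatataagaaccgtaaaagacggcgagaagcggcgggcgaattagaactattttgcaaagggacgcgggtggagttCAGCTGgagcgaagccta
Dtx1, chr5:120711620-120711919, minus strand: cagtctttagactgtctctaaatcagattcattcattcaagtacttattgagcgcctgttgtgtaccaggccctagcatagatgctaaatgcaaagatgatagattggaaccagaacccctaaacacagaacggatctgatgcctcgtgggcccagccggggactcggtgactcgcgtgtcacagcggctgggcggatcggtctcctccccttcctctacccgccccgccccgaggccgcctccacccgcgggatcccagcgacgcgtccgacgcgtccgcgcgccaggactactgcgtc

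The Ptcra window held TGGGAA at 84 and 32 bases before the start. It also held 3 E-boxes, at 60 and 49 bases before and from base 22 after the start, each with the letters CAGCTG. The Nrarp window held E-boxes 108 bases before and from base 33 after the start, the second of them CAGCTG. The windows of Notch1, Notch3, Dtx1 and Il2ra held neither motif. TGGGAA was thus in 1 of 6 windows, against 25.6% of all 32851 windows in the table, and at least 2 copies were in 3.79%. At least 1 CANNTG stood in 2 of 6 windows, against 72.3% of all windows. CANNTG of any form occurred 3 times or more in 17.6% of all windows. CAGCTG, which is one form of CANNTG, occurred 3 times or more in 0.207% of all windows. Those letters and that number are the ones seen in the Ptcra window, so the smaller share is no test. CTTTGAT or CTTTGAA, letters of the TCF/LEF motif, were in 0 of 6 windows and in 8.65% of all windows. The G and C share ran from 42.7% in Il2ra to 70.0% in Notch3, with a median of 52.7% over all windows. The number of CG pairs was 1 in Ptcra, 3 in Il2ra, 21 in Nrarp, 23 in Notch1, 25 in Notch3 and 26 in Dtx1. A match is a description of letters, and the windows do not reach distant enhancers.

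Before the members, the arrays were set against their labels. The disrupted gene of the TCF-1-/- animals was not analysed here, so that label has no check. Ctnnb1, the β-catenin gene, had values of 11.16 on the TCF-1-/-, 11.39 on the transgenic and 11.15 on the WT array, on the log2 scale of all values below. Xist, the RNA of the inactive X chromosome, was at 4.86 on the transgenic array, against 12.49 on the WT array, and was at 12.17 on the TCF-1-/- array. The Y-linked gene Uty was at 8.81 on the transgenic array, against 4.20 on the WT array, and was at 4.43 on the TCF-1-/- array. In the transgenic comparison genotype, age and these X- and Y-linked differences cannot be told apart, nor can genotype and age in the TCF-1-/- one. Of 8 measured genes of the T cell receptor complex and pan-T surface proteins, 0 differed by 2-fold between the TCF-1-/- and WT arrays, and Cd3e was at 13.05, 13.34 and 13.42 on the TCF-1-/-, transgenic and WT arrays. Of all probe sets, 28.8% carry identical values on the 3 arrays, and 0 of the 8 members are among them or equal on any pair of arrays. Of all genes, 36.4% had identical values on the TCF-1-/- and WT arrays, and 41.0% on the TCF-1-/- and transgenic arrays. The step that made such ties is not stated, so equal values below do not show an unchanged level.

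**Figure D1:**
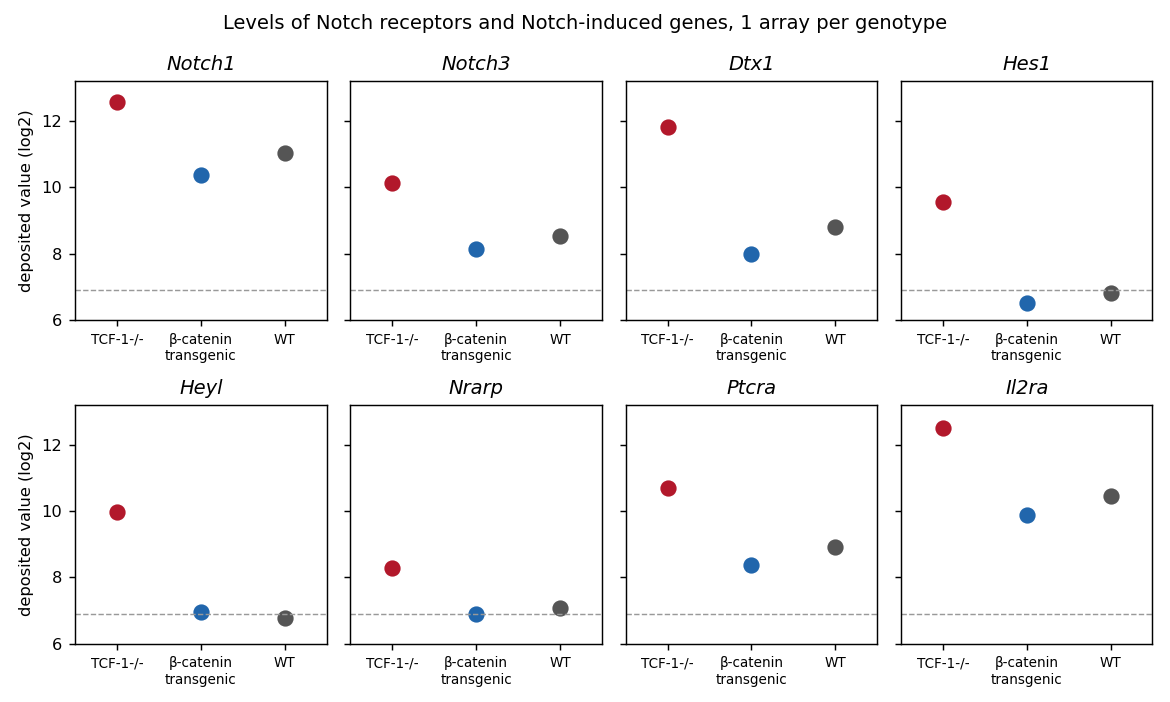
Deposited log2 value (vertical axis) of each of the 8 genes on the TCF-1-/-, β-catenin transgenic and WT arrays, 1 point per array. The dashed line is the median level over genes, 6.90. The TCF-1-/- array is the highest in all 8 panels, and the transgenic array is the lowest in all except Heyl.

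All 8 genes were higher on the TCF-1-/- than on the WT array by at least 2-fold, the size used here to call a difference. The same call was made for 1.33% of all genes (266 of 19938), and 2.62% (523) were lower by that size. The members were chosen with earlier results of these data known, so these shares describe and do not test. With each array centred on its median over all probe sets, a step that shifts the median of all genes by 0.13, the counts over all genes were 364 higher and 405 lower. The 8 differences ran from 1.23 for Nrarp to 3.19 for Heyl, in log2 units as all differences below. Their median was 1.93 (3.80-fold), and the median over all genes was 0. In bulk RNA, more cells of a type and more RNA per cell cannot be told apart.

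The receptors were at the lower end of this range. Notch1, the receptor required for T lineage commitment, had a level of 12.57 on the TCF-1-/- array, 10.36 on the transgenic and 11.02 on the WT array. Its difference between the TCF-1-/- and WT arrays was 1.54, or 2.92-fold, rank 113 from the top of 19938 genes. Notch3, a receptor that is itself induced by Notch1, had a level of 10.13 on the TCF-1-/-, 8.13 on the transgenic and 8.53 on the WT array. Its difference of 1.60 (3.04-fold) was close to that of Notch1. The other receptors were within 2-fold. Notch2 was at 9.04 on the TCF-1-/- array and had the same value on the WT array to the last digit. It was at 8.98 on the transgenic array. Notch4, a receptor of endothelial cells, lay under the median level of all genes on every array and differed by 0.11 between the TCF-1-/- and WT arrays.

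The targets with the largest differences were transcriptional repressors and a ubiquitin ligase. Heyl, a basic helix-loop-helix repressor of the HEY group, was at 9.96 on the TCF-1-/- array, 6.95 on the transgenic and 6.76 on the WT array. The difference of 3.19 between TCF-1-/- and WT corresponds to 9.15-fold and ranked 16 of 19938 genes. Hes1, the related repressor of the HES group that restrains alternative fates in thymocyte precursors, was at 9.55, 6.53 and 6.82 on the TCF-1-/-, transgenic and WT arrays. Its difference of 2.74 (6.66-fold) ranked 29. The WT values of Heyl and Hes1 lie below the median level over genes, 6.90, as do the transgenic values of Hes1 and Nrarp. Folds taken against such dim values are uncertain in size. Dtx1, a ubiquitin ligase of the Deltex family that binds Notch, was above that level on every array. It was at 11.82 on the TCF-1-/- array, 7.99 on the transgenic and 8.79 on the WT array. Its difference of 3.03 (8.16-fold) ranked 19, and it had the widest range over the 3 arrays of the 8 genes, 3.83.

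Nrarp, a small ankyrin repeat protein that limits Notch signalling, had the smallest difference. It was at 8.29 on the TCF-1-/- array, 6.88 on the transgenic and 7.07 on the WT array. The difference of 1.23 between TCF-1-/- and WT is 2.34-fold and ranked 173. Of the members, Nrarp and Notch1 were those within 3-fold. The other 6 passed 3-fold, as did 0.537% of all genes.

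Ptcra and Il2ra encode proteins of the DN3 stage. Ptcra, the α chain of the pre-T cell receptor, was at 10.70 on the TCF-1-/- array, 8.37 on the transgenic and 8.91 on the WT array. Its TCF-1-/- minus WT difference was 1.79, or 3.46-fold. Il2ra, which encodes the IL-2 receptor α chain (CD25), by which DN2 and DN3 cells are recognised, was at 12.50, 9.88 and 10.44 on the TCF-1-/-, transgenic and WT arrays. Its difference between the TCF-1-/- and WT arrays was 2.06, or 4.17-fold. Both genes lay above the median level over genes on every array.

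**Figure D2:**
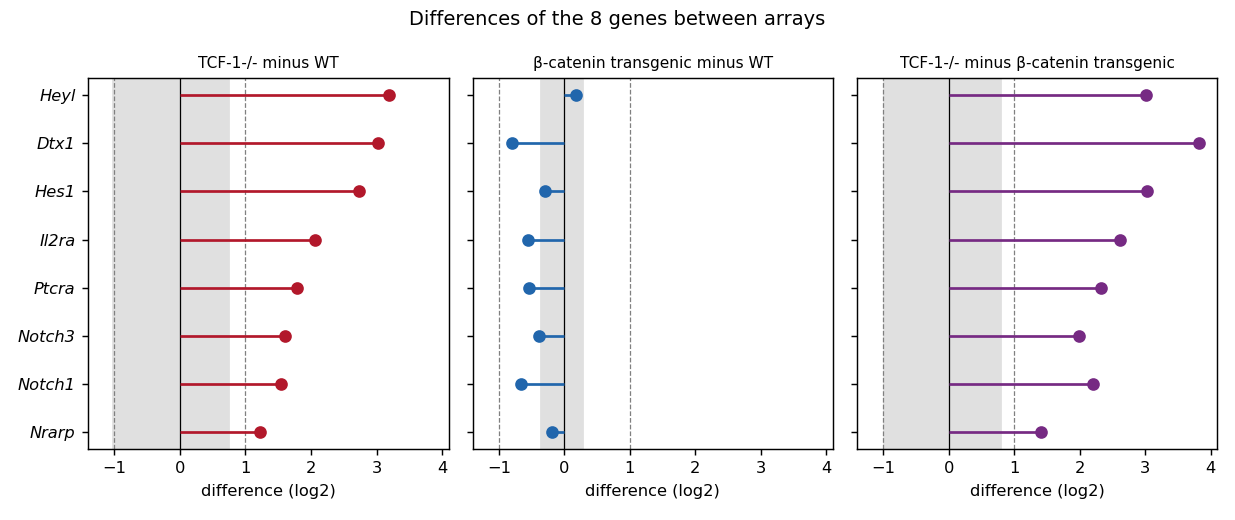
Differences in log2 units (horizontal axis) of the 8 genes (vertical axis), ordered by TCF-1-/- minus WT, in 3 panels, 1 per comparison. Grey bands span the central 95% of all genes, dashed lines are 2-fold, and the panels share arrays. All 8 points lie right of the 2-fold line in the left and right panels and none lies beyond it in the middle panel.

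On the β-catenin transgenic array the same genes stood slightly below WT. None of the 8 was lower by 2-fold or higher by 2-fold, as were 0.0953% and 0.15% of all genes. Of the 8, 7 had a lower value on the transgenic than on the WT array at any size, and 22.2% of all genes did. That share is held down by ties, since 53.3% of all genes had identical values on these arrays and 0 of the 8 did. The median over the 8 was -0.46, and the median over all genes was 0. Dtx1 had the largest difference, -0.80 (1.74-fold lower on the transgenic array), followed by Notch1 with -0.66 (1.58-fold lower). These were the 2 members lower by at least 1.5-fold, a size reached in that direction by 0.667% of all genes. With arrays centred on their medians over all probe sets the count was 1, since Notch1 then differed by -0.58. Il2ra differed by -0.56, Ptcra by -0.54, Notch3 by -0.39, Hes1 by -0.29 and Nrarp by -0.18. Heyl was the exception, with a transgenic value higher by 0.19. The central 95% of all genes, ties included, lay between -0.36 and 0.29 in this comparison. Dtx1, Notch1, Il2ra, Ptcra and Notch3 were below that range, and Hes1, Nrarp and Heyl were inside it. The spread between mice, against which differences of this size would have to be read, is not known.

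Set against each other, the mutant arrays differed more widely than either did from WT for 7 of the 8 genes. This follows from the signs above, as these 7 were above WT on the TCF-1-/- array and below it on the transgenic array. All 8 had TCF-1-/- values above the transgenic values by 2-fold or more, a call made for 1.57% of all genes. At 3-fold it was 7 of the 8 and 0.592% of all genes. This comparison shares an array with each of the others. Dtx1 differed by 3.83 (14.2-fold), Hes1 by 3.03 (8.16-fold), Heyl by 3.01 (8.05-fold) and Il2ra by 2.62 (6.14-fold). Ptcra differed by 2.33 (5.03-fold), Notch1 by 2.20 (4.60-fold), Notch3 by 1.99 (3.99-fold) and Nrarp by 1.41 (2.66-fold). Heyl, whose transgenic value was the one above WT, was the exception to the wider difference. The median over the 8 was 2.47, or 5.56-fold, and the median over all genes was 0.

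Most of the remaining genes of the pathway were within 2-fold, as were most of all genes. The members had been set apart with earlier results of these data known, so their contrast with these genes is no test. Of 60 other receptors, ligands, processing enzymes, nuclear partners, attenuators and HES/HEY family genes, 57 had a probe set of their own. None of the 57 was higher or lower by 2-fold on the TCF-1-/- than on the WT array, beside 1.33% and 2.62% of all genes. Their median difference was 0, as was that of all genes. With each array centred on its median over named genes, 1 of the 57, Ep300, was lower by 2-fold. Between the TCF-1-/- and transgenic arrays Ep300 was lower by 1.13 (2.20-fold), the 1 of the 57 past 2-fold there. At 1.5-fold, 1 was higher and 8 were lower on the TCF-1-/- than on the WT array, beside 4.04% and 6.9% of all genes. With arrays centred on their medians over all probe sets these numbers became 2 and 5. On the transgenic array, 0 of 57 differed from WT by 1.5-fold, beside 0.487% of all genes higher and 0.667% lower.

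Among the 7 ligands, 5 lay under the median level of all genes on every array. Dll4, the ligand on thymic epithelium that activates Notch1, had a level of 6.73 on the TCF-1-/- array, 6.73 on the transgenic and 6.51 on the WT array. Dll1, Dll3 and Jag2 had equal values on all 3 arrays. Dlk1, a non-canonical relative of the ligands, had the largest difference, at 8.18 on the TCF-1-/- array against 7.60 on the WT array, or 0.59.

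Of 14 measured enzymes that cut or glycosylate Notch, 0 differed by 2-fold between the TCF-1-/- and WT arrays. Lfng, the Fringe glycosyltransferase that sharpens the response of Notch1 to Delta ligands, had the largest difference. It was at 7.93 on the TCF-1-/-, 8.15 on the transgenic and 8.62 on the WT array, lower by 0.69 on the TCF-1-/- than on the WT array. The metalloprotease Adam17 (-0.39), the γ-secretase subunit Ncstn (-0.34), the convertase Furin (-0.34) and Psen2, a presenilin of γ-secretase (0.31), had the next largest TCF-1-/- minus WT differences.

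Nuclear partners of Notch had a lower median on the TCF-1-/- array. Their median difference from WT was -0.46 over 13 measured genes, beside 0 over all genes, and 0 passed 2-fold. This median was -0.33 with centring on all probe sets, -0.51 with centring on named genes and -0.40 after removal of the loess trend. At 1.5-fold, 6 of the 13 were lower, beside 6.9% of all genes. With centring on all probe sets or removal of the loess trend it was 5. Rbpj itself was at 9.45 on each array, with equal values on the TCF-1-/- and WT arrays. Ep300, a histone acetyltransferase recruited by the Notch complex, was at 10.31 on the TCF-1-/- array, 11.44 on the transgenic and 11.29 on the WT array. Its difference of -0.98 was just under the 2-fold size. The Mastermind co-activators Maml2 and Maml1 differed by -0.90 and -0.89 on the TCF-1-/- relative to the WT array, and Maml3 by 0.30. A second, slightly dimmer probe set of Maml2 differed by -0.72. The acetyltransferases Kat2b (-0.74) and Crebbp (-0.62) and the co-repressor Cir1 (-0.74) were also lower by more than 1.5-fold, though a second, dimmer probe set of Cir1 differed by -0.33.

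In the families of Dtx1, Hes1 and Heyl, the relatives were within 2-fold. As the members were chosen with earlier results known, this contrast describes and does not test. Dtx2, Dtx3, Dtx3l and Dtx4, the other Deltex genes, differed between the TCF-1-/- and WT arrays by -0.39, -0.20, -0.17 and 0.24. Of 9 further HES, HEY and related genes, 0 differed by 2-fold between those arrays, and 6 lay under the median level of all genes on every array. Hes6 was at 9.25 on the TCF-1-/- array, 9.26 on the transgenic and 9.25 on the WT array. Hes5 differed between the TCF-1-/- and WT arrays by 0.26 and Hes7 by 0.25, and Hes3, Hey1 and Hey2 had equal values there. Among attenuators, Itch, a ubiquitin ligase of Notch (-0.59), Fbxw7, which marks the intracellular part for degradation (-0.49, and 0 in a dimmer probe set), Mib1, a ubiquitin ligase that acts on ligands (0.46), and Numb (0, equal values) stayed within 2-fold.

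**Figure D3:**
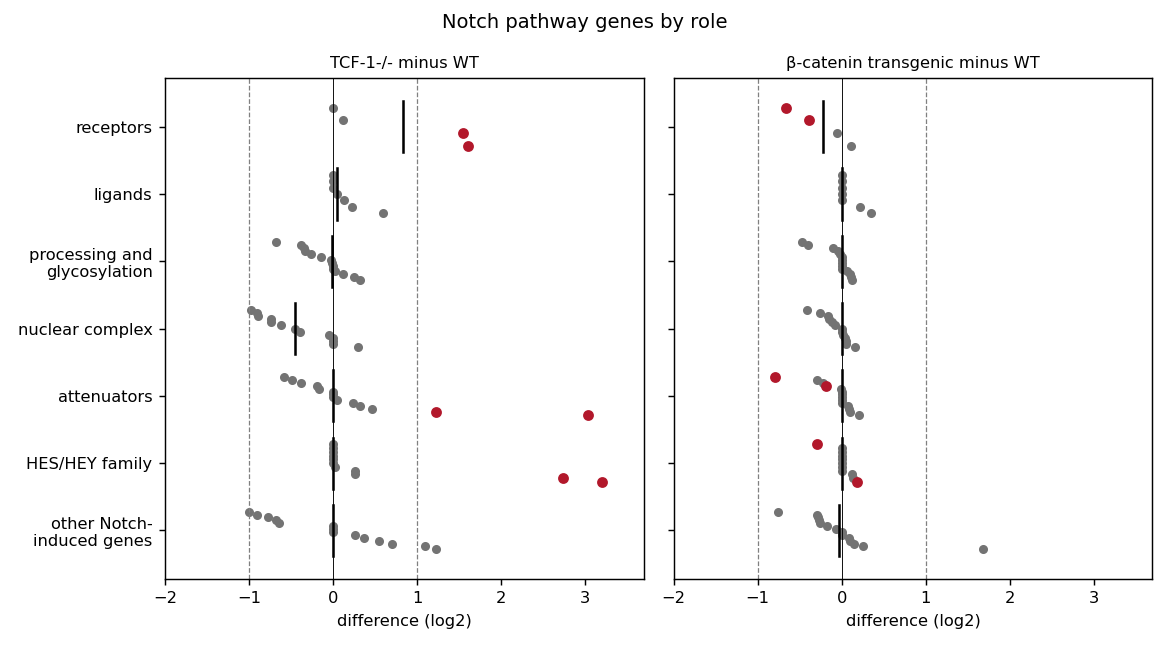
Differences from WT in log2 units (horizontal axis) for each measured gene of the Notch pathway, grouped by role (vertical axis), on the TCF-1-/- array at the left and the transgenic array at the right. Red points are the 8-gene members in each role, grey points are other genes, black bars are medians and dashed lines are 2-fold. In the 6 upper roles the points right of the 2-fold line at the left are red. The members were chosen with earlier results of these data known.

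A further list held genes for which induction by Notch has been described in T cell precursors or leukaemia, other than the members. Of 14 measured, 2 were higher by 2-fold on the TCF-1-/- array than on the WT array and 0 were lower, with a median of 0. Over all genes, 1.33% were higher and 2.62% lower by that size. Ccnd1, cyclin D1, was at 8.13 on the TCF-1-/- array, 7.05 on the transgenic and 6.90 on the WT array, a difference of 1.23 between TCF-1-/- and WT. Myc, a growth regulator, was at 12.23, 10.84 and 11.13 on the TCF-1-/-, transgenic and WT arrays, a difference of 1.10. Ccr7, a chemokine receptor just under the 2-fold size (past it with arrays centred on named genes), Cd44 (-0.91), Ccnd3, cyclin D3 (-0.78), and Bcl11b, a T lineage commitment factor (-0.68), had lower values on the TCF-1-/- array. Trib2, a pseudokinase, was higher by 0.70 and Gata3, a T lineage factor, by 0.26. Cd44, a hyaluronan receptor, was the gene of this list that differed by 2-fold on the transgenic array, higher by 1.68. Myc differed from WT there by -0.29 and Ccnd1 by 0.15.

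Ptcra and Il2ra act with partner chains, and those measured were read next. Il2rg, the IL-2 receptor γ chain, Jak3 and Lck had no probe set of their own and were not measured. For the pre-T cell receptor and the DN3 stage, 15 genes outside the members were measured. On the TCF-1-/- array 1 was higher by 2-fold than on the WT array and 3 were lower, beside 1.33% and 2.62% of all genes. Rag1 and Rag2, the recombinase that assembles antigen receptor genes at the DN3 and the double-positive stage, had differences of -1.95 and -1.44. Cd28, a co-stimulatory receptor, differed by -1.06 and was within 2-fold after centring on all probe sets or removal of the loess trend. Spib, an ETS factor, was higher by 1.10, at 8.00 on the TCF-1-/- array and 6.90 on the WT array. The CD3 chains, which signal for the pre-T cell receptor, differed between the TCF-1-/- and WT arrays by 0.60 (Cd3d), 0.17 (Cd3g), -0.37 (Cd3e) and -0.91 (Cd247). Of 7 measured IL-2 receptor system genes besides Il2ra, 0 differed by 2-fold between the TCF-1-/- and WT arrays. Between the TCF-1-/- and transgenic arrays 1 was lower, Stat5b (-1.21). Il2rb, the β chain, was at 8.67 on the TCF-1-/- array, 8.38 on the transgenic and 8.82 on the WT array. Stat5b, a factor activated by the receptor, differed by -0.84 between TCF-1-/- and WT, and Il7r, the IL-7 receptor, by 0.63. Il7r was also past 2-fold between the TCF-1-/- and transgenic arrays after centring on all probe sets or removal of the loess trend.

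Among other genes, those most like the members were sought by the distance between pairs of differences from WT. The pair is the TCF-1-/- and the transgenic difference, taken over 3 arrays, and the point of comparison is the members' median pair of 1.93 and -0.46. Both differences share the WT array. Of 9478 candidate genes at or above the median level, Usp18, a protease that removes the ubiquitin-like protein ISG15, was the nearest, at a distance of 0.10 log2 units. It differed by 1.96 on the TCF-1-/- array and by -0.57 on the transgenic array. Next came Plac8 (distance 0.20), Spats2 (0.21), Ccdc18 (0.25), the tetraspanin Cd82 (0.29), the receptor Gpr83 (0.30), the αE integrin Itgae (0.31) and the T cell receptor γ segment Trgv1 (0.34). Trgv1 has relatives in the γ locus that can share signal, so its value is uncertain. Of the members, Ptcra (0.15) and Il2ra (0.16) lay nearest to the median pair, and Heyl (1.43) and Dtx1 (1.15) farthest. The median member distance was 0.59, and 33 of the 9478 candidates lay within it.

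**Figure D4:**
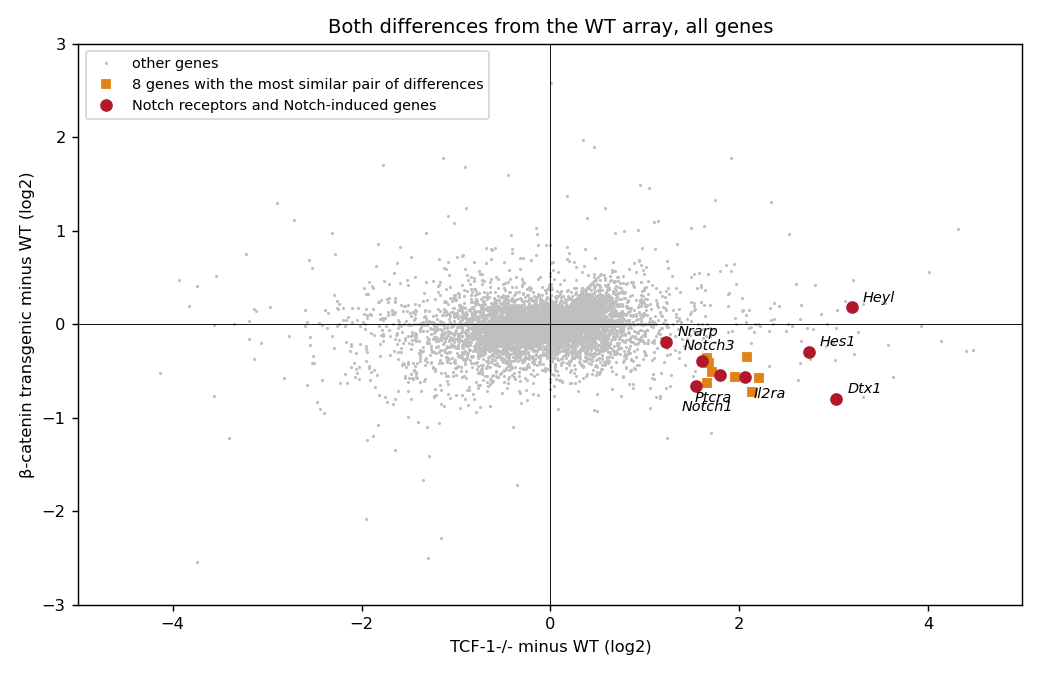
Difference from WT on the TCF-1-/- array (horizontal axis, log2) against that on the β-catenin transgenic array (vertical axis, log2), 1 point per gene; 4 genes lie outside the plotted range. The 8 members (red) all lie at 1.23 or farther right, and all except Heyl lie below 0 on the vertical axis; orange squares are the 8 nearest genes. The axes share the WT array.

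Several kinds of cells express the members, so marker lists were read beside them. The lists were chosen with earlier results of these data known, so their counts describe and do not test. Over all genes, 1.33% were higher by 2-fold on the TCF-1-/- than on the WT array and 2.62% were lower. Of 11 measured markers of double-positive thymocytes, 10 were lower by 2-fold on the TCF-1-/- array than on the WT array and 0 higher, with a median of -1.75. Their summed level was 14.12 on the TCF-1-/-, 15.88 on the transgenic and 15.79 on the WT array (log2 of the summed linear values). Cd4 was at 9.13 on the TCF-1-/- array, 13.29 on the transgenic and 12.87 on the WT array. Of 8 measured markers listed for γδ T cells, which do not pass through the double-positive stage, 7 were higher by 2-fold on the TCF-1-/- array, with a median of 2.39. They included the kinase Blk (2.99), the ETS factor Etv5 (2.93), the factor Maf (2.86) and Sox13 (1.95), and the summed level was 12.96 on the TCF-1-/-, 10.33 on the transgenic and 10.45 on the WT array. Zbtb16, the remaining gene of the γδ list, had equal values on the TCF-1-/- and WT arrays. The median of the γδ list was 0 between the transgenic and WT arrays, and that of the double-positive list was 0.08. The part of these lists in the levels of the 8 members was not tested.

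Il2ra is also a gene of regulatory T cells. Foxp3, the factor that defines them, was at 7.08 on all 3 arrays, a tie that does not show an unchanged level. Ctla4 was at 7.15 on the TCF-1-/- array and 7.28 on the WT array. Of the 7 measured markers of these cells, 1 was higher by 2-fold on the TCF-1-/- array, Gpr83 (2.21), and 0 were lower. Their summed level was 11.80, 10.81 and 11.31 on the TCF-1-/-, transgenic and WT arrays. Tnfrsf18 and Tnfrsf4, receptors of activated and regulatory T cells, differed by -0.93 and -0.87 between TCF-1-/- and WT.

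Notch3 and Heyl are also expressed by mural cells of vessels. Of the 9 markers of these cells, 7 lay under the median level of all genes on every array and 1, Pdgfrb, was higher by 2-fold on the TCF-1-/- array than on the WT array. Pdgfrb, a growth factor receptor, was at 11.62 on the TCF-1-/- array, 6.87 on the transgenic and 7.15 on the WT array. Rgs5, Acta2, Tagln and Myh11, on the same list, had equal values on all 3 arrays, between 4.70 and 6.72. These values lie under the median level of all genes and say little about these cells. The summed level of the mural list was 11.89 on the TCF-1-/-, 9.54 on the transgenic and 9.56 on the WT array. Of 8 endothelial markers 0 differed by 2-fold between those arrays, and 6 were dim on all arrays. Of 8 measured B lymphocyte markers, 3 were higher on the TCF-1-/- array by 2-fold, Cd79a (2.53), Fcmr (1.86) and Ms4a1 (1.64), or 5 with centring on all probe sets, and the summed level was 11.57 there, 10.76 on the transgenic and 10.50 on the WT array. Of 8 early progenitor markers 1 was higher by 2-fold, Mef2c (1.21), and Kit, the receptor of early thymic progenitors, differed by 0.21. Of 9 dendritic and myeloid markers, Cybb (1.55) and Lyz2 (1.12) were higher, and of 8 thymic epithelial markers, Cldn4 was lower (-1.44). The part of these cells in the members' levels was not tested.

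**Figure D5:**
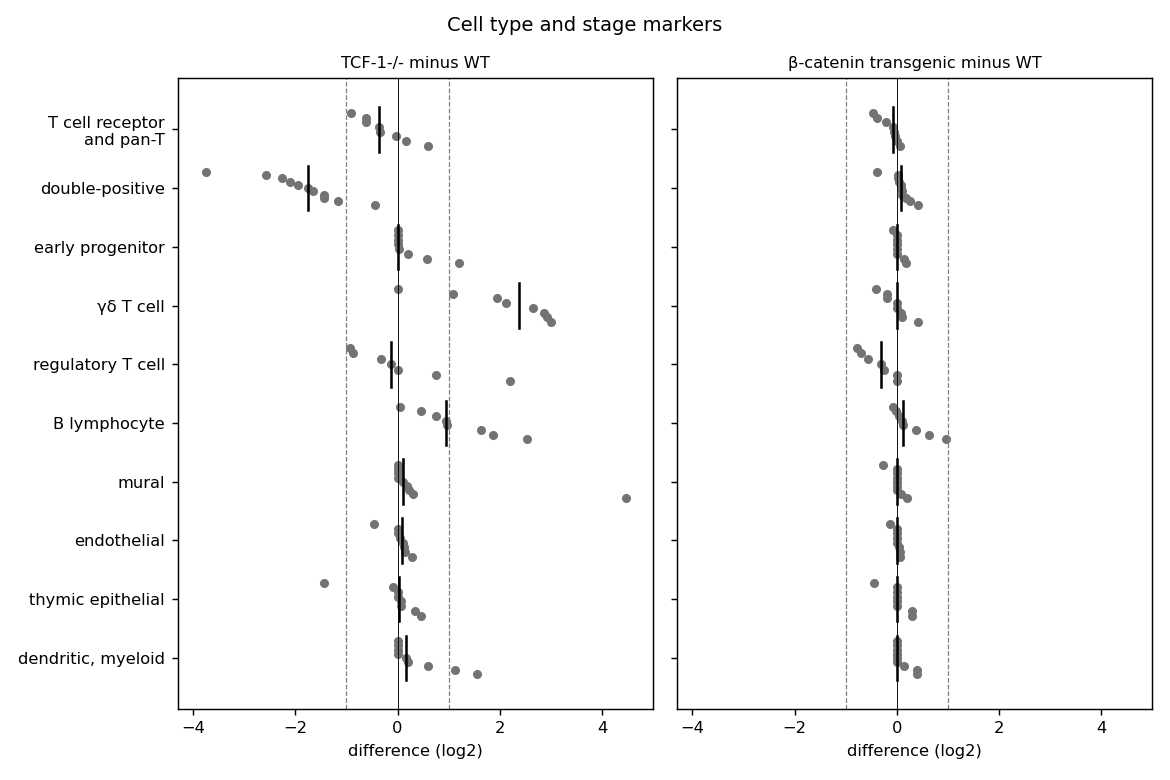
Differences from WT in log2 units (horizontal axis) for markers of thymocyte stages and other cell types (vertical axis, 1 point per gene), on the TCF-1-/- array at the left and the transgenic array at the right. Black bars are medians and dashed lines are 2-fold. On the TCF-1-/- array 10 of 11 double-positive markers lie left of the lower line and 7 of 8 γδ T cell markers lie right of the upper line.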

How the data were processed

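RNA of thymocytes, passed through a cell strainer with no sort named in the labels, was hybridised to Affymetrix whole-transcript arrays, 1 for each of 3 genotypes. The deposited values are taken as log2 values: RMA and Partek are named in the submitters' processing notes, and the values run from 1.73 to 14.8. The sources used here give no log base, version, setting or genome build.

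The deposited normalisation was kept. Of 35556 probe sets, 21789 have 1 gene symbol in the platform annotation, 1621 have several and 12146 are unnamed here. They gave 19938 genes. A gene with several probe sets is represented by that with the highest mean. Differences are 1 array minus another and calls are at 2-fold. No test was possible. The members and gene lists were chosen with earlier results of these data known, and the motifs after the values were seen. Named genes include the 8 members, pathway list genes beyond 2-fold in TCF-1-/- minus WT with up to 5 more by size, and the 8 nearest genes by profile. Predicted genes, clones and small RNAs were left out of the latter. In the marker lists the counts cover all measured genes, and the genes named are a part of them, picked without that rule. Calculations were tested on simulated data. The alternatives tried were other thresholds, scalings, a loess trend (span 0.3), probe set rules and a filter on dim members. Python 3.11.15, NumPy 2.4.6, pandas 2.3.3, statsmodels 0.14.6 and matplotlib 3.10.9 were used.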

Additional observations from a re-analysis of the deposited data

How the results depend on the processing

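All 8 genes stayed higher by 2-fold on the TCF-1-/- array than on the WT array, and than on the transgenic array, under both centrings, the loess trend, the probe set rules and the dim filter. At 3-fold, 6 and 7 of the 8 remained. The median over the 8 ran from 1.88 to 2.06 for TCF-1-/- minus WT, from 2.43 to 2.53 for TCF-1-/- minus transgenic and from -0.47 to -0.39 for transgenic minus WT. With a 1.5-fold threshold, 2 members in place of 0 were lower with the transgene than in WT. That comes from the threshold alone, and the number was 1 at that threshold with arrays centred on all probe sets. The 8 members kept their signs in each comparison under every alternative run. Since each member has 1 probe set and none is dim on all arrays, the probe set rules and the dim filter could not change them. Centring on the median over all probe sets shifts the median over genes by 0.13 (TCF-1-/- minus WT) and 0.08 (transgenic minus WT). The difference of Nrarp on the transgenic array, -0.18, became -0.11 there. Applied to the lists after seeing the data, the same scalings moved calls by 2-fold in TCF-1-/- minus WT for Ep300, Ccr7, Cd28, Cd22 and Ebf1, and in transgenic minus WT for Cd79a. No paired analysis was possible because each genotype has 1 array, and none could be left out. Signal over background is not known from the deposited values, so sizes against dim values are uncertain.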
